A study of Mus musculus with 20 samples.

Results

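The genes described here are 50 mouse genes that drive DNA replication and cell division, taken from a list by symbol and measured in kidneys of 20 male mice. Of the 50 genes, 49 were in the table of 19940 genes and 38 passed the filter on low values (a normalized count of 10 or more in at least 5 libraries), against 14630 genes that passed in all. The list holds 14 genes of S phase and its preparation, of which 13 were tested, and 36 genes of mitosis, of which 25 were tested. Aurkb was not analysed here. Kidneys came from Tert+/+ mice and from Tert-/- mice of generation 3 (G3), at 7 weeks (young) and at 47 weeks (old), with 5 mice and 1 library per mouse in each of the 4 groups. The protein made from Tert is the catalytic subunit of telomerase, and a G3 mouse descends from earlier generations bred without it. Strain, litter and batch are not given in the sources used here, and the sample is RNA of whole kidney rather than of 1 cell type.

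A cell commits to division when cyclin E and the E2F factors switch on genes for the replicative helicase, the sliding clamp and the enzymes that make deoxynucleotides. Genes of mitosis follow later: the cyclins that activate Cdk1, topoisomerase and condensins that shape chromosomes, kinetochore proteins, spindle motors and the ubiquitin ligase that ends mitosis. Cells of the adult kidney divide rarely, the kidney still grows in the weeks after birth, and mitotic transcripts are commonly read as markers of the few cells in cycle. In RNA of a whole organ, fewer dividing cells and less RNA per dividing cell cannot be told apart.

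Libraries held 7161690 to 9757594 reads assigned to genes, and values are normalized read counts from the 3′ end of each transcript, which are not scaled to gene length. Tert itself was counted at 9.72 ± 4.24 (mean ± SD, n = 5) in young Tert+/+, 3.11 ± 2.07 in young G3 Tert-/-, 11.9 ± 4.37 in Tert+/+ mice of 47 weeks and 6.99 ± 1.65 in G3 Tert-/- mice of that age. Since 3′ reads may come from outside the deletion, they are a weak check of genotype. All 8 proximal tubule markers were tested, and their summed level was 157248 to 443322 in each library. In Tert+/+ mice, replicate 1 of the young and replicate 4 of the old group stood apart, with the lowest of the 20 quality weights estimated by limma (0.211 and 0.298, against at least 0.398). Replicate numbers only name mice, and nothing in the labels pairs them.

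With limma and equal weights for all libraries, members passed the test in the age comparisons and none passed for genotype. In G3 Tert-/- kidneys 6 of the 38 tested genes fell between 7 and 47 weeks and none rose: the spindle genes Kif20b, Tpx2 and Nusap1, the kinetochore gene Cenpf, the topoisomerase Top2a and the ribonucleotide reductase subunit Rrm2 (limma, adjusted p under 0.05 over all tested genes). Among all 14630 genes, 2.24% passed in this comparison and 1.31% passed with a lower level in old kidneys. In Tert+/+ kidneys Top2a fell and no other member passed, where 0.649% of all genes passed and 0.246% passed with a lower level. An unadjusted p under 0.05 was reached by 19 of 38 members in G3 Tert-/- kidneys, against 14.9% of all genes, and by 8 in Tert+/+ kidneys (21.1%, against 10.6% of all genes). Some of these members could enter the test only with the help of young libraries, as described below. Among genes with a mean count of at least 20, it was reached by 8 of 24 members in G3 Tert-/- kidneys, against 1892 of 12119 genes. In Tert+/+ kidneys 5 of 24 members reached it, against 1327 of 12119 genes. The difference between the genotypes in the effect of age, tested as an interaction, passed for 0 members (5 or 13.2% at an unadjusted p under 0.05, against 6.22% of all genes, smallest adjusted p = 0.774) and for 0.00684% of all genes. The count in G3 Tert-/- kidneys was 2 without young replicate 1, young replicate 2 or old replicate 4 of that genotype, 3 without its young replicate 3, its old replicate 5 or Tert+/+ old replicate 2, and 11 without both libraries that stood apart.

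With age, the tested mitotic genes had lower medians than the tested S phase genes. This difference was not tested, and the filter favours it, as described below. Over the 25 tested mitotic genes the median log2 fold change with age was -1.06 in G3 Tert-/- and -0.38 in Tert+/+ kidneys, with 24 and 20 of 25 below 0. Over the 13 tested S phase genes it was -0.35 and 0.01, with 10 and 6 of 13 below 0, and over all tested genes it was 0.00 in both. These medians and counts are descriptions. Of the 38 genes, 5 (Rrm2, Ccnb1, Cdk1, Tpx2 and Prc1) reached a count of 10 in at most 1 old library. Anln, Cdc20, Hmmr, Plk1 and Racgap1 reached it in more old libraries, but in fewer than the 5 that the filter needs. Each of these genes could enter the test only with the help of young libraries. All except Rrm2 are mitotic, so the filter favours falls more among mitotic than among S phase genes. Among genes with a mean of at least 20, the median over mitotic and S phase members together was -0.36 in G3 Tert-/- and -0.08 in Tert+/+ kidneys. Over all 38 members it was -0.54 and -0.29. These medians pool both kinds of gene. They cannot show how much of the difference between mitotic and S phase genes remains in that set. In G3 Tert-/- mice every old library lay below every young library for 6 of the 38 members (15.8%: Rrm2, Ccnb1, Cenpf, Kif20b, Top2a and Smc4), against 2.66% of all genes. Rrm2 and Ccnb1 are among the genes that needed young libraries to enter the test, so the filter favours that order for them. For Ccnb1 the highest old and the lowest young library held equal reads, and scaling alone parts them. In Tert+/+ mice this held for 1 member, Top2a (2.63%), against 1.25% of all genes.

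**Figure D1:**
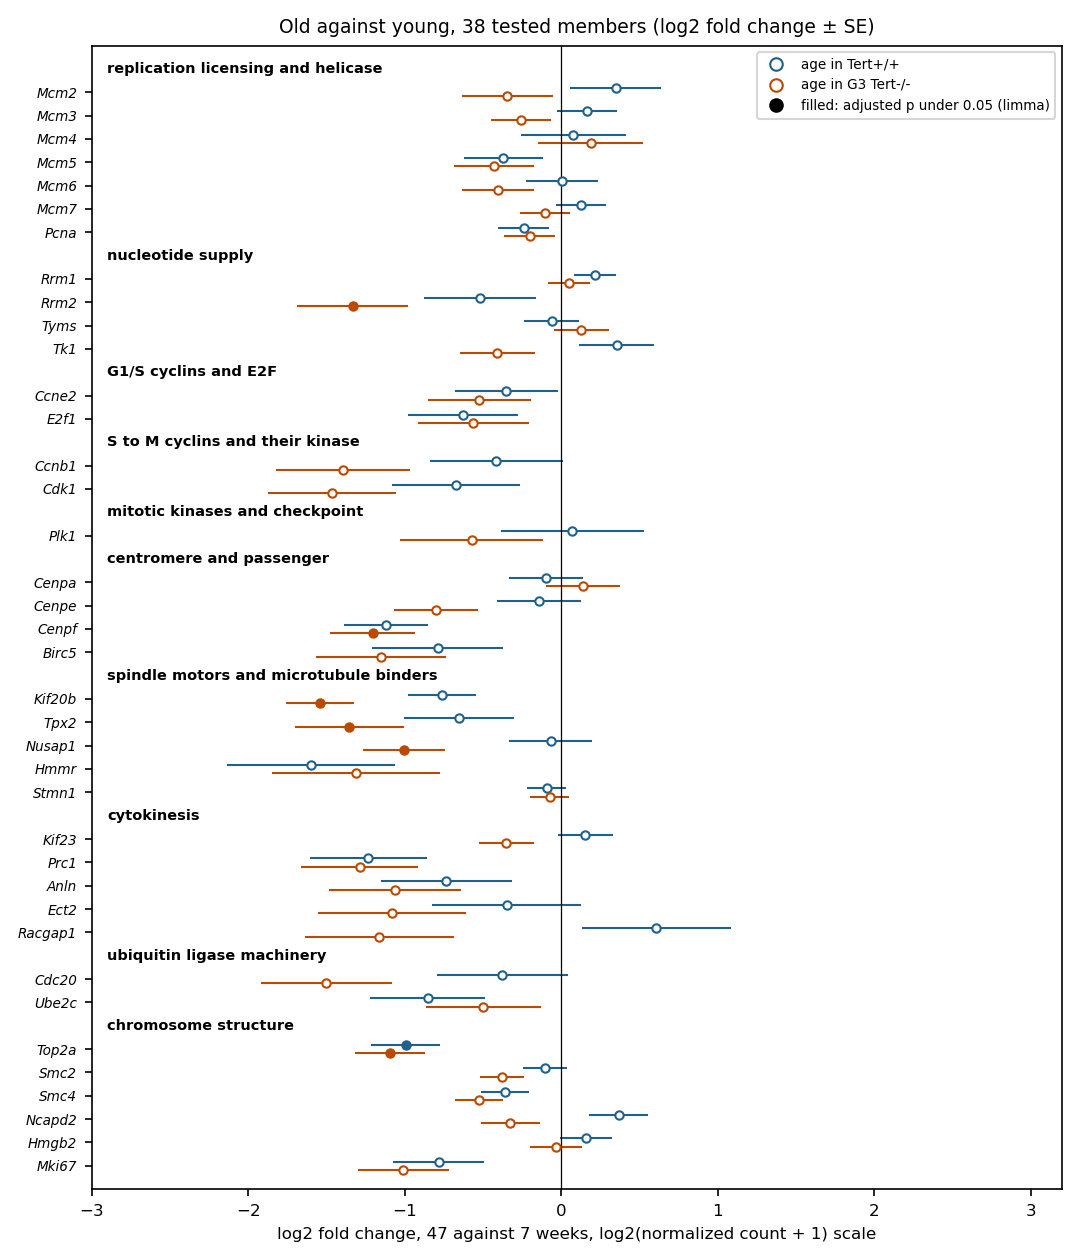
Log2 fold change of old against young kidneys (x axis, on the log2(normalized count + 1) scale) for the 38 tested genes by role, with points for Tert+/+ (blue) and G3 Tert-/- (orange), bars of 1 SE, and filled points where the adjusted p was under 0.05. The 6 filled orange points run from -1.54 (Kif20b) to -1.01 (Nusap1), and the 1 filled blue point is Top2a at -0.99. The helicase and clamp genes run from -0.43 to 0.19 (orange) and from -0.37 to 0.35 (blue).

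The summed counts show the same genes by mouse. The 35 measured mitotic genes together gave 1899 to 2472 in young Tert+/+, 2068 to 2651 in young G3 Tert-/-, 1540.0 to 1952 in old Tert+/+ and 1445 to 1762 in old G3 Tert-/- kidneys. Abundant genes such as Kif20b weigh most in a sum, and without Kif20b the ranges were 1624 to 1966, 1724 to 2234, 1333 to 1651 and 1334 to 1637, so that in G3 Tert-/- mice old and young kidneys did not overlap with or without it. The 14 S phase genes together gave 647 to 843, 732 to 841, 699 to 802 and 654 to 721 in the same order of groups. Old and young Tert+/+ kidneys overlapped in the S phase sum, and in G3 Tert-/- mice the highest old value lay just under the lowest young one.

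The promoters of these genes are shown because most mitotic promoters hold a string that most S phase promoters lack. Of the 6 genes that fell 5 are mitotic, which is near the share among all tested members (25 of 38). Mitotic promoters are known for the cell cycle genes homology region (CHR), bound by the MuvB complexes that silence these genes in resting cells and activate them in dividing cells, often beside CCAAT boxes bound by NF-Y. S phase promoters are known for E2F sites. Windows from 250 bases before to 50 after the start were taken from RefSeq (GRCm38.p6) and matched 42 of the 50 genes, with 45 promoters. The CHR was searched as TTTGAA or TTCGAA, the CCAAT box as CCAAT, and the E2F site as TTTCCCGC, TTTCGCGC, TTTGCCGC or TTTGGCGC, each on both strands, none of these strings contains another, and matches may overlap. A CHR string was present in 26 of 32 mitotic promoters (81.2%), in 2 of 13 S phase promoters (15.4%) and in 19.2% of all 32851 promoters in the table. CCAAT was present in 84.4% of mitotic, 69.2% of S phase and 37.4% of all promoters, and an E2F string in 6.25%, 30.8% and 2.26%. An E2F string was present in 4 of the 7 helicase and clamp promoters (57.1%). A match is a string in a window and was not tested for binding.

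Below are the stretches from 150 bases before to 20 after the start of 4 genes that fell with age (Top2a, Cenpf, Kif20b and Nusap1), of the proliferation marker Mki67 and of the helicase gene Mcm2. Each is read 5′ to 3′ on the gene's strand, with CHR and CCAAT strings in capitals (TTCAAA and ATTGG are these strings on the other strand).
Top2a, minus strand, chr11:99024170-99024339: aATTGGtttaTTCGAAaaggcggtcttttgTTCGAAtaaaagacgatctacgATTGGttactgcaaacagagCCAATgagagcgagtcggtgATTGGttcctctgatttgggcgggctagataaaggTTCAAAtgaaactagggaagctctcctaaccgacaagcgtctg
Cenpf, minus strand, chr1:189688067-189688236: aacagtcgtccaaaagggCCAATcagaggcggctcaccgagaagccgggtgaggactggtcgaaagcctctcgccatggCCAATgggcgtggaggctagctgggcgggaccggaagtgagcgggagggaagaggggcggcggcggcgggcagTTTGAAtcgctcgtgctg
Kif20b, plus strand, chr19:34922208-34922377: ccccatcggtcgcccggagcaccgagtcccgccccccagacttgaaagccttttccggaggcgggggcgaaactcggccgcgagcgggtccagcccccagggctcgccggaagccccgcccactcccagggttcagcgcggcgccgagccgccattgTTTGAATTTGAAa
Nusap1, plus strand, chr2:119618148-119618317: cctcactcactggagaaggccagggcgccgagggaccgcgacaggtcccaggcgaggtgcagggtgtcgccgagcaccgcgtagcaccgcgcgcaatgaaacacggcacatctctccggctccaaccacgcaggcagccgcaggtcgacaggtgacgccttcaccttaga
Mki67, minus strand, chr7:135716360-135716529: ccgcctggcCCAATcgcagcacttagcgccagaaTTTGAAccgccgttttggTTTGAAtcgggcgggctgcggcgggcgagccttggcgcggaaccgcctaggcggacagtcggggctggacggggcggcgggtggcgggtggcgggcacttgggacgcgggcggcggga
Mcm2, minus strand, chr6:88898761-88898930: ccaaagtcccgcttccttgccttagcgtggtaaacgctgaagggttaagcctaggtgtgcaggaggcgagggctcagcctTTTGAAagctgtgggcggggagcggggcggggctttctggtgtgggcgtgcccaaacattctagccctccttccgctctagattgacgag
In the stretch shown, Top2a holds CHR strings before and after 3 of the 4 CCAAT boxes, Mki67 a pair of them, and Cenpf and Kif20b hold theirs just after the start, a tandem pair in Kif20b. Nusap1, which also fell in G3 Tert-/- kidneys, holds neither string in the stretch shown, and Mcm2, which did not pass, holds 1 CHR string. Of the genes that fell and are not shown, Rrm2 holds a CCAAT box and no CHR string in its window, and Tpx2 had no matched promoter.

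Among chromosome structure genes, Top2a fell in both genotypes. Top2a (chromosome 11, 98992943 to 99024189) encodes topoisomerase II alpha, which untangles sister chromosomes before they part. At 7 weeks it was counted at 99.4, 84.9, 104, 116 and 106 in Tert+/+ and at 105, 114, 118, 68.1 and 85.7 in G3 Tert-/- kidneys, given here and below in the order of replicates 1 to 5. At 47 weeks the counts were 33.2, 65, 56.5, 45 and 59 in Tert+/+ and 62.3, 25.6, 44.7, 62.3 and 39.4 in G3 Tert-/- kidneys. In both genotypes every old kidney lay below every young one, and the genotypes overlapped at each age. Top2a fell in G3 Tert-/- (-1.09 on the log2 scale, SE 0.22, adjusted p = 0.00721) and in Tert+/+ kidneys (-0.99 on the log2 scale, SE 0.22, adjusted p = 0.0331). The interaction was -0.10 (SE 0.31, adjusted p = 0.966). Its call in Tert+/+ kidneys was lost without any one of young replicates 1, 3, 4 and 5 and old replicates 1, 3, 4 and 5 of that genotype (adjusted p up to 0.115), and its call in G3 Tert-/- kidneys held in all 30 alternative fits.

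Mki67, the gene of the Ki-67 antigen that coats mitotic chromosomes (chromosome 7, 135689784 to 135716361), did not pass. It was at 49.2, 30.9, 52.8, 42.5 and 44.6 in young Tert+/+ and 67.2, 57.7, 74.4, 31.6 and 38.6 in young G3 Tert-/- kidneys. In old kidneys it was at 13.5, 21.7, 23.4, 29.3 and 45.6 in Tert+/+ and 43.3, 26.6, 24.9, 17.4 and 19.2 in G3 Tert-/- mice. The old groups reached into the young ones through 1 mouse each, Tert+/+ replicate 5 and G3 Tert-/- replicate 1. Log2 fold changes with age were -1.01 in G3 Tert-/- (SE 0.29, adjusted p = 0.0726) and -0.78 in Tert+/+ kidneys (SE 0.29, adjusted p = 0.301).

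The condensin subunits Smc2, Smc4 and Ncapd2, which compact chromosomes, and the DNA-bending protein Hmgb2 did not pass. Smc4 was at 454 to 620.1 in young and 243 to 518 in old Tert+/+ kidneys, and at 551 to 649 and 358 to 494 in G3 Tert-/- kidneys, where the ages did not overlap (log2 fold change -0.52, adjusted p = 0.0757). Smc2 had a log2 fold change with age of -0.38 in G3 Tert-/- and -0.10 in Tert+/+ kidneys, and Hmgb2 of -0.03 and 0.16. Ncapd2 was at 33.5, 40.5, 37.2, 58.2 and 50.5 in young Tert+/+ and 60.0, 60.7, 87.6, 49.8 and 60.0 in young G3 Tert-/- kidneys, with replicate 3 of the latter above the rest. In old kidneys it was at 59.1, 55.2, 55.5, 47.3 and 63.4 in Tert+/+ and 73.9, 38.9, 42.6, 46 and 53.5 in G3 Tert-/- mice. Old G3 Tert-/- replicate 1 lay above all old Tert+/+ mice, 3 others of its group lay below them, and the log2 fold change with age was -0.33 against 0.37 in Tert+/+ kidneys (interaction -0.69, SE 0.27, adjusted p = 0.774).

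At the centromere, Cenpf fell and its partners did not pass. Cenpf (chromosome 1, 189640606 to 189688086) encodes a large protein of the outer kinetochore, where chromosomes attach to spindle microtubules. Counts were 55.1, 29.9, 58.7, 47.1 and 85.8 in young Tert+/+ and 64.5, 63.6, 54.6, 39 and 50.4 in young G3 Tert-/- kidneys. They were 20.7, 28.6, 35.1, 13.5 and 25.6 in old Tert+/+ and 38, 19.4, 22.9, 17.4 and 20.2 in old G3 Tert-/- kidneys. Old and young G3 Tert-/- mice did not overlap, although replicate 1 of the old group came just under the lowest young mouse, while in Tert+/+ mice 1 young library (replicate 2) lay within the old range. Cenpf fell in G3 Tert-/- kidneys (-1.21 on the log2 scale, SE 0.27, adjusted p = 0.0161), a call lost without young replicate 1, young replicate 2 or old replicate 4 of that genotype (adjusted p up to 0.0550). The value in Tert+/+ kidneys was of like size and missed the threshold (-1.12 on the log2 scale, SE 0.27, adjusted p = 0.0536), and it passed with edgeR (adjusted p = 0.0431) and DESeq2 (adjusted p = 0.00680).

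Cenpe, a kinetochore motor, was at 32.4 to 81.8 in young and 16.4 to 45.7 in old G3 Tert-/- kidneys (age effect -0.80, adjusted p = 0.134), and had -0.14 in Tert+/+ kidneys. Birc5, which encodes survivin of the chromosomal passenger complex, had -1.15 and -0.79. Cenpa, the histone variant that marks centromeres, lay near 0 in both (0.14 and -0.10).

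Spindle motors and microtubule binders held 3 of the 6 falls in G3 Tert-/- kidneys. Kif20b (chromosome 19, 34922361 to 34975745), a kinesin of late mitosis and cytokinesis, was the member with the largest log2 fold change among those that passed. It was at 276, 383, 634, 608 and 401 in young Tert+/+ and 362, 312, 416, 344 and 471 in young G3 Tert-/- kidneys. In old kidneys it was at 207, 300.5, 224, 348 and 239 in Tert+/+ and 125, 86, 163, 111 and 184 in G3 Tert-/- mice. Old G3 Tert-/- kidneys lay below all 15 others, the only group apart, and old Tert+/+ kidneys overlapped the lower young ones. Kif20b fell with age in G3 Tert-/- kidneys (-1.54 on the log2 scale, SE 0.22, adjusted p = 0.000159) in all 30 alternative fits. In Tert+/+ kidneys it missed the threshold (-0.76 on the log2 scale, SE 0.22, adjusted p = 0.128), and it passed with DESeq2 (adjusted p = 0.0256), with quality weights (0.00282), without the 2 libraries that stood apart (0.0111) and without young replicate 1 of that genotype (0.0319), over a range of 0.00282 to 0.292 in all alternatives.

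Kif20b was also the member nearest to a genotype effect. At 47 weeks its group means were 264 ± 58.8 in Tert+/+ and 134 ± 39.5 in G3 Tert-/- kidneys (n = 5 each), with no overlap (-0.998 on the log2 scale, SE 0.22, adjusted p = 0.0905). It passed with DESeq2 (adjusted p = 0.00965) and with quality weights (adjusted p = 0.00577), and over the alternatives the adjusted p ran from 0.00577 to 0.338. Its interaction was -0.78 (SE 0.31, adjusted p = 0.774). This comparison and the age comparison in G3 Tert-/- mice share the 5 old G3 Tert-/- libraries.

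Tpx2 (chromosome 2, 152847964 to 152895321), which activates Aurora kinase A on the spindle, was counted at 14.8, 8.68, 9.78, 14.8 and 11.8 in young Tert+/+ and 10.9, 19.6, 17, 11.6 and 12.9 in young G3 Tert-/- kidneys. It was at 4.14, 8.87, 7.79, 6.76 and 8.90 in old Tert+/+ and 7.39, 12.3, 4.16, 3.06 and 2.02 in old G3 Tert-/- kidneys. Old G3 Tert-/- replicate 2 lay within the young range of its genotype and the other 4 below it. Nusap1 (chromosome 2, 119618298 to 119651244), which bundles spindle microtubules around chromosomes, was at 29.5, 37.6, 39.1, 58.2 and 69 in young Tert+/+ and 82.7, 65.6, 97, 39 and 81.5 in young G3 Tert-/- kidneys. It was at 48.7, 42.4, 38.9, 34.9 and 49 in old Tert+/+ and 53.9, 29.7, 47.8, 25.5 and 24.2 in old G3 Tert-/- kidneys. In young G3 Tert-/- mice 4 of 5 reached 65.6 or more, as did 1 of the 15 others.

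Both genes fell with age in G3 Tert-/- kidneys, Tpx2 by a log2 change of -1.35 (SE 0.35, adjusted p = 0.0399) and Nusap1 with -1.01 (SE 0.26, adjusted p = 0.0430). Tpx2 reached a count of 10 in 8 young libraries and 1 old one, so it entered the test through the ages in which it is high. In Tert+/+ kidneys the values were -0.66 and -0.07, and neither passed. Each call sat near the threshold: leaving out 1 library at a time ended that of Tpx2 in 10 of 20 fits and that of Nusap1 in 13 of 20, with adjusted p up to 0.127 and 0.133.

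Hmmr, a receptor of hyaluronan that also binds spindle microtubules, had the largest log2 fold change in Tert+/+ kidneys without passing. It reached a count of 10 in 2 old libraries of each genotype, so it needed young libraries to enter the test. It was at 14.8, 7.72, 16.6, 13.9 and 34.5 in young Tert+/+ and 24.5, 22.5, 35.8, 8.30 and 21.4 in young G3 Tert-/- kidneys. At 47 weeks, it was at 1.04, 4.93, 12.7, 1.13 and 13.4 in Tert+/+ and 11.6, 4.09, 15.6, 4.09 and 8.08 in G3 Tert-/- kidneys. Old Tert+/+ mice ranged from 1.04, which is 1 read, to 13.4, the ages overlapped in both genotypes, and the log2 fold changes were -1.60 in Tert+/+ (SE 0.54, adjusted p = 0.227) and -1.31 in G3 Tert-/- kidneys. Stmn1, which destabilises microtubules and is not restricted to dividing cells, had log2 fold changes of -0.09 and -0.07. Kif11, the motor that separates spindle poles, and the kinesins Kif20a and Kif4 lay below the filter.

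**Figure D2:**
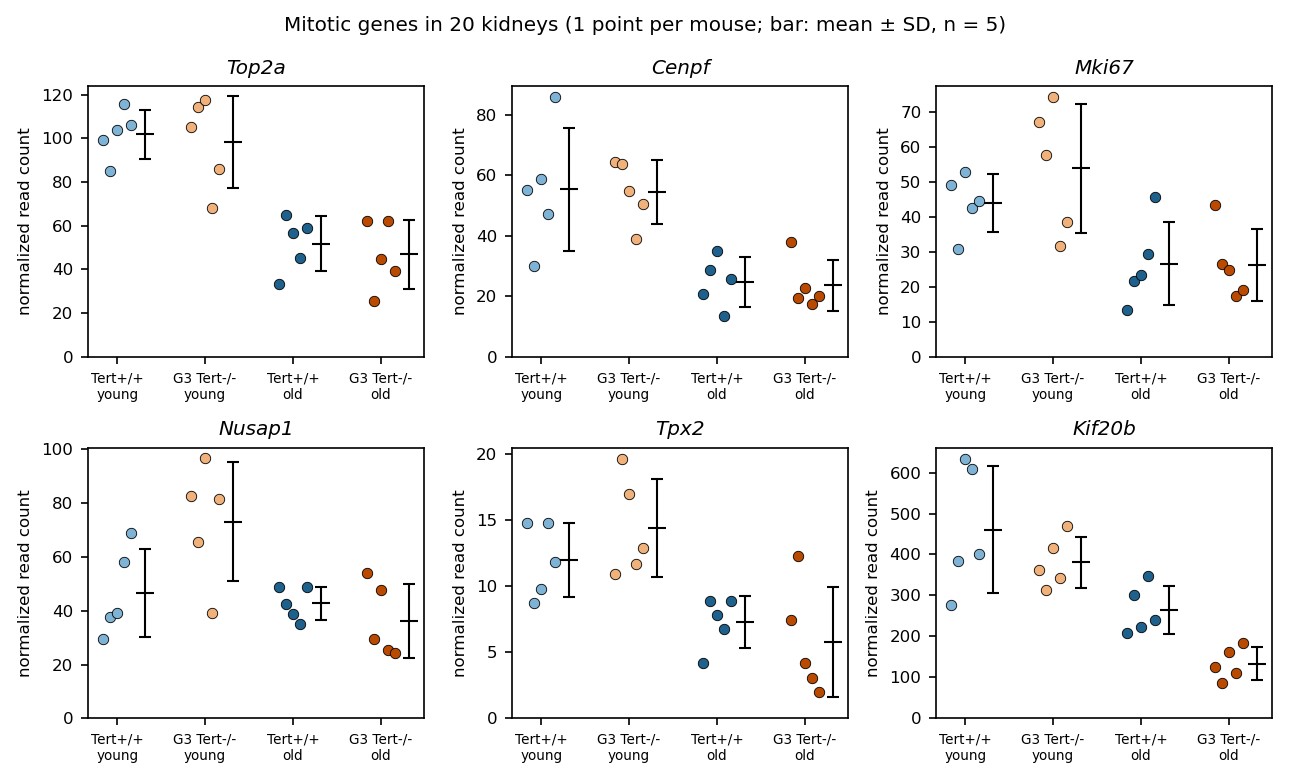
Normalized read counts (y axis, from 0) of 6 mitotic genes in the 4 groups, with 1 point per mouse and a bar at the mean ± SD (n = 5). Old kidneys of both genotypes lie below young ones for Top2a, Nusap1 is at 65.6 or more in 4 of 5 young G3 Tert-/- mice, and Kif20b is lowest in the 5 old G3 Tert-/- mice.

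Cyclins and kinases of mitotic entry were scarce and did not pass. Cdk1, the kinase that starts mitosis, was at 5.90, 4.82, 11.7, 4.62 and 14.3 in young Tert+/+ and 12.7, 17.6, 15.1, 5.81 and 12.9 in young G3 Tert-/- kidneys. It was at 4.14, 4.93, 4.87, 3.38 and 4.45 in old Tert+/+ and 11.6, 4.09, 2.08, 2.04 and 3.03 in old G3 Tert-/- kidneys. Old G3 Tert-/- replicate 1 stood among the young mice, and the other 4 of its group lay below every young mouse of their genotype (-1.46 on the log2 scale, SE 0.41, adjusted p = 0.0604). Ccnb1, its cyclin partner, was at 4.92, 7.72, 6.85, 12 and 10.9 in young Tert+/+ and 13.6, 6.85, 14.1, 5.81 and 5.36 in young G3 Tert-/- kidneys. In old mice, it was at 7.25, 13.8, 3.89, 2.25 and 6.68 in Tert+/+ and 2.11, 4.09, 2.08, 5.11 and 1.01 in G3 Tert-/- kidneys. The ages did not overlap in G3 Tert-/- kidneys (-1.39 on the log2 scale, SE 0.43, adjusted p = 0.0934), where 3 of the 5 old libraries held under 3 reads, and they overlapped in Tert+/+ kidneys. In G3 Tert-/- kidneys the highest old value (5.11) and the lowest young value (5.36) rest on equal reads, and scaling alone parts them. Plk1, the polo-like kinase, had log2 fold changes with age of -0.57 and 0.07 in G3 Tert-/- and Tert+/+ kidneys.

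Cytokinesis genes, which cut the daughter cells apart, had no member that passed. With age in G3 Tert-/- kidneys 4 of 5 had an unadjusted p under 0.05, as did 14.9% of all genes. Prc1, Anln and Racgap1 needed young libraries to enter the test, so the filter favours falls among them. Prc1, which organises the central spindle, was at 12.8, 8.68, 13.7, 16.6 and 25.2 in young Tert+/+ and 29.1, 19.6, 26.4, 10.8 and 15 in young G3 Tert-/- kidneys. It was at 5.18, 4.93, 2.92, 7.88 and 8.90 in old Tert+/+ and 15.8, 6.14, 7.27, 8.17 and 3.03 in old G3 Tert-/- kidneys, with replicate 1 of that group as high as young mice. Its log2 fold changes were close in size in both genotypes, -1.23 (SE 0.37, adjusted p = 0.162) in Tert+/+ and -1.29 (SE 0.37, adjusted p = 0.0729) in G3 Tert-/- kidneys.

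Racgap1, a part of the centralspindlin complex, was the member with the largest interaction. It was at 11.8, 7.72, 7.82, 1.85 and 12.6 in young Tert+/+ and 7.27, 17.6, 25.4, 21.6 and 8.57 in young G3 Tert-/- kidneys. At 47 weeks, counts were at 8.29, 15.8, 15.6, 9.01 and 11.1 in Tert+/+ and 6.34, 10.2, 9.35, 1.02 and 8.08 in G3 Tert-/- kidneys. All 4 groups overlapped, and the interaction of -1.77 (SE 0.67, adjusted p = 0.774) did not pass. Kif23, its motor partner, was at 55.1, 69.4, 57.7, 73.9 and 39.5 in young Tert+/+ and 72.7, 67.5, 81, 57.3 and 49.3 in young G3 Tert-/- kidneys. In old mice, it was at 63.2, 76.8, 56.5, 61.9 and 65.7 in Tert+/+ and 43.3, 47.1, 47.8, 66.4 and 50.5 in G3 Tert-/- kidneys. It also overlapped between all groups, with log2 fold changes with age of 0.15 in Tert+/+ and -0.35 in G3 Tert-/- kidneys. Anln, an actin binder of the cleavage furrow, and Ect2, which activates the furrow's RhoA, had -1.06 and -1.08 in G3 Tert-/- kidneys and -0.73 and -0.35 in Tert+/+ kidneys. Of the ubiquitin ligase genes that end mitosis, Cdc20 had -1.50 in G3 Tert-/- (adjusted p = 0.0610) and -0.38 in Tert+/+ kidneys, and Ube2c had -0.50 and -0.85. Cdc20 reached a count of 10 in 1 old library of each genotype, so it needed young libraries to enter the test.

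In S phase, none of the 7 genes of the replicative helicase and its clamp passed in any comparison. Their log2 fold changes with age ran from -0.43 to 0.19 in G3 Tert-/- and from -0.37 to 0.35 in Tert+/+ kidneys. Mcm2, a subunit of the helicase ring, was at 8.86, 31.8, 28.4, 29.6 and 36.2 in young Tert+/+ and 36.3, 35.2, 40.5, 45.7 and 36.4 in young G3 Tert-/- kidneys. It was at 31.1, 30.5, 35.1, 25.9 and 35.6 in old Tert+/+ and 47.5, 30.7, 21.8, 40.9 and 19.2 in old G3 Tert-/- kidneys. Young Tert+/+ replicate 1, which stood apart, held far less than any other mouse, and old G3 Tert-/- mice spread on both sides of old Tert+/+ mice.

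Mcm7, another subunit of the ring, was at 329.7, 276, 210.3, 245 and 195 in young Tert+/+ and 261, 239, 192, 246 and 244 in young G3 Tert-/- kidneys. At 47 weeks, it was at 232, 258, 250.2, 386 and 244 in Tert+/+ and 158, 225, 221, 252 and 252 in G3 Tert-/- kidneys. Its 2 highest values were in the 2 libraries that stood apart. Pcna, the sliding clamp, was at 71.8, 60.8, 53.8, 56.4 and 65.6 in young Tert+/+ and 54.5, 62.6, 80.1, 93.8 and 67.5 in young G3 Tert-/- kidneys. In old mice, counts were at 58, 46.3, 52.6, 49.6 and 53.4 in Tert+/+ and 68.7, 71.6, 68.6, 58.2 and 43.4 in G3 Tert-/- kidneys. Ages and genotypes overlapped, with log2 fold changes with age of -0.24 (SE 0.16) in Tert+/+ and -0.20 (SE 0.16) in G3 Tert-/- kidneys.

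Among the genes of nucleotide supply, Rrm2 alone passed. Rrm2 (chromosome 12, 24708241 to 24714146), the S phase subunit of ribonucleotide reductase, was at 4.92, 4.82, 17.6, 9.24 and 5.89 in young Tert+/+ and 19.1, 13.7, 16, 10.8 and 15 in young G3 Tert-/- kidneys. It was at 4.14, 4.93, 8.76, 2.25 and 6.68 in old Tert+/+ and 5.28, 3.07, 6.23, 6.13 and 6.06 in old G3 Tert-/- kidneys. All 5 young G3 Tert-/- mice and 1 young Tert+/+ mouse reached a count of 10 and no old mouse did, so this gene entered the test through the group where it is high. It fell with age in G3 Tert-/- kidneys (-1.33 on the log2 scale, SE 0.36, adjusted p = 0.0495), at the edge of the threshold, and the call was lost in 16 of the 20 fits that left out 1 library. In Tert+/+ kidneys the value was -0.52 (SE 0.36).

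Rrm1, the partner subunit present in all phases, had log2 fold changes of 0.05 and 0.21, and thymidylate synthase Tyms of 0.13 and -0.06, with age in G3 Tert-/- and Tert+/+ kidneys. Tk1, cytosolic thymidine kinase, was at 22.6, 49.2, 46, 70.2 and 61.4 in young Tert+/+ and 75.4, 68.5, 62.2, 65.6 and 50.4 in young G3 Tert-/- kidneys. At 47 weeks, it was at 63.2, 69.9, 48.7, 45 and 80.1 in Tert+/+ and 54.9, 55.3, 60.2, 37.8 and 36.4 in G3 Tert-/- kidneys. Its age effect of 0.35 in Tert+/+ stood beside -0.41 in G3 Tert-/- kidneys, a difference that did not pass (interaction -0.76, SE 0.34, adjusted p = 0.791). The G1/S cyclin Ccne2 and the factor E2f1 had values of -0.35 and -0.63 in Tert+/+ and -0.52 and -0.56 in G3 Tert-/- kidneys.

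Genotype gave no call among these genes at either age. At 7 weeks 0% of all genes passed, and 4 members (10.5%) had an unadjusted p under 0.05, against 10.7% of all genes: Mcm2 (log2 fold change 0.64), Rrm2 (0.88), Nusap1 (0.64) and Ncapd2 (0.53), each higher in G3 Tert-/- mice. Rrm2 entered the test through young G3 Tert-/- mice, the group where it is high. The value of Mcm2 leans on young Tert+/+ replicate 1 (8.86 against 28.4 to 36.2 in its group), and its lowest value over the alternatives was 0.29. At this age DESeq2 and edgeR also called 0 members. 29 of the 38 genes had a positive value, with a median of 0.23, against 0.00 over all tested genes. At 47 weeks 0.0957% of all genes passed, and 25 of the 38 members had a negative value with a median of -0.11, against 0.01 over all tested genes. Kif20b and Ccnb1 (-0.93) had an unadjusted p under 0.05 (5.26%, against 6.58% of all genes). Ccnb1 rests on few reads at this age, with a count of 10 reached in 1 old Tert+/+ and 0 old G3 Tert-/- libraries. DESeq2 called 1 member at 47 weeks, Kif20b, and edgeR 0. The interaction (the genotype effect in old mice less that in young mice) was negative for 30 of 38 members with a median of -0.30, against 0.00 over all tested genes. Members and comparisons share the same libraries, so these counts and medians are not independent and are descriptions.

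**Figure D3:**
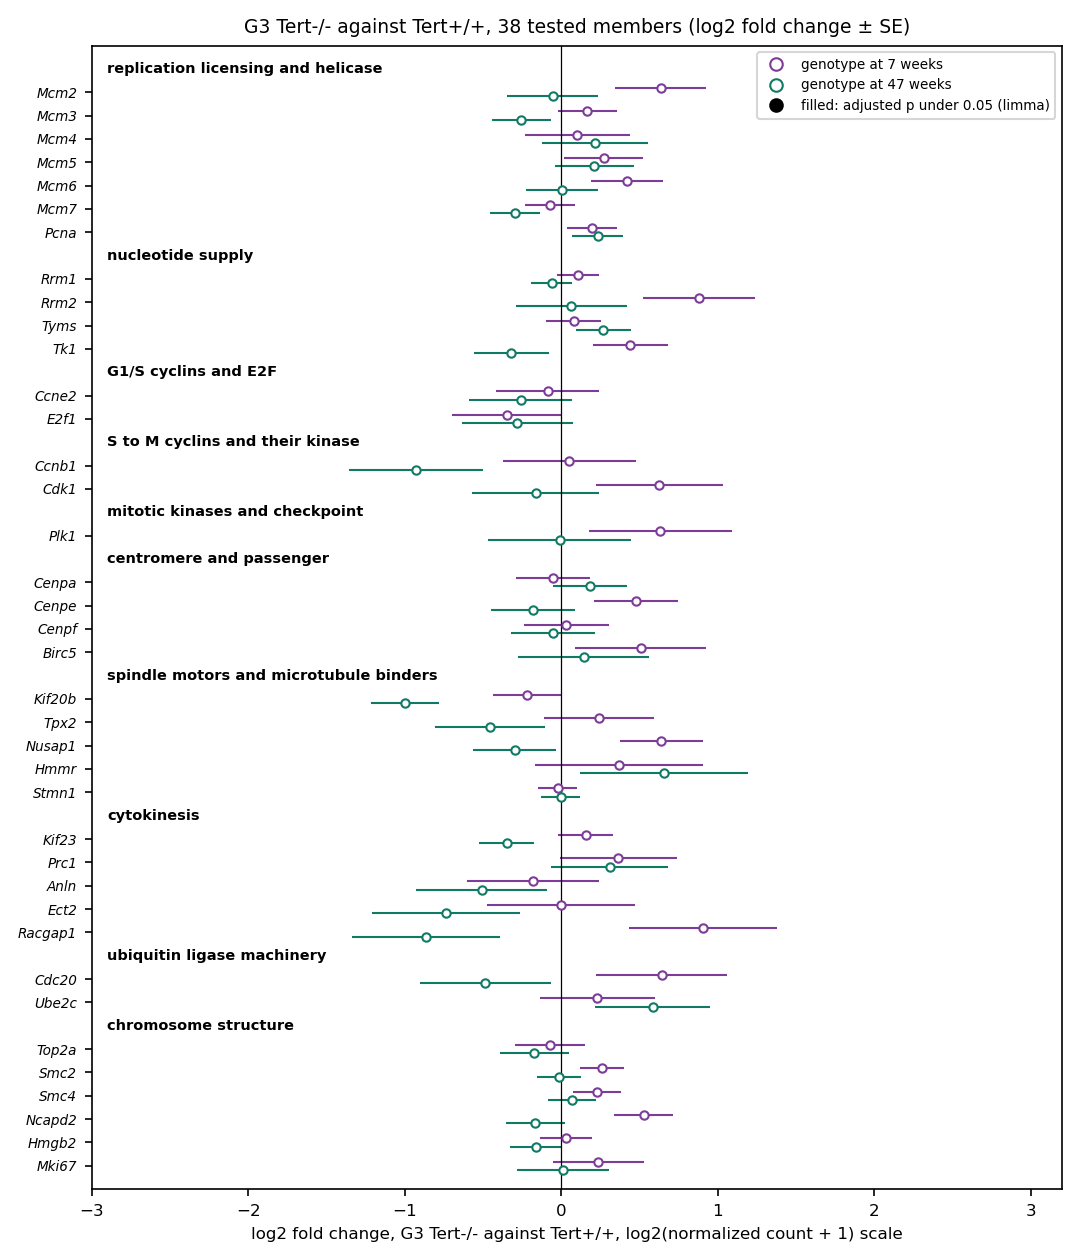
Log2 fold change of G3 Tert-/- against Tert+/+ kidneys (x axis, log2(normalized count + 1) scale) for the 38 tested genes by role, at 7 weeks (purple) and at 47 weeks (green), with bars of 1 SE. No point is filled, since no member had an adjusted p under 0.05, and most purple points lie above 0 (29 of 38) while most green points lie below (25 of 38).

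The 11 genes under the filter were Ccne1, Ccna2, Ccnb2, Aurka, Bub1, Bub1b, Melk, Kif11, Kif20a, Kif4 and Ube2t, which include cyclins A and B and the spindle checkpoint kinases. Their summed count was 33.3 to 59.7 (median 48.2) in young Tert+/+, 31.6 to 73.4 (55.4) in young G3 Tert-/-, 21.1 to 32.1 (24.8) in old Tert+/+ and 9.21 to 41.2 (14.3) in old G3 Tert-/- kidneys. The ages did not overlap in Tert+/+ mice, and in G3 Tert-/- mice they overlapped through old replicate 1. A count of 0 leaves room for as many as 3 reads (2.49 to 3.38 after normalization, counting error only), and no test was made of these genes. Over all 20 libraries the highest mean counts of the 49 genes were those of Smc4, Stmn1 and Kif20b and the lowest those of Bub1, Melk and Kif20a.

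Mice of the same group differed in their mitotic genes together, and less so in their S phase genes. After each gene's group mean was subtracted, the median Pearson correlation over 20 libraries was 0.23 for the 300 pairs of mitotic genes, -0.02 for the 78 pairs of S phase genes, 0.04 for pairs across both and -0.002 for all pairs of tested genes. These values describe 20 libraries that share a normalization and carry no test, and for mitotic genes the median was 0.26 without the 2 libraries that stood apart and 0.21 without old G3 Tert-/- replicate 1. The closest pair was an S phase gene with a mitotic one, Tk1 with Cenpa (0.82), followed by Cenpf with Hmmr (0.77), with Cdk1 (0.76) and with Smc2 (0.74), and by Top2a with Hmgb2 (0.73). Tk1 and Cenpa were both lowest of their group in young Tert+/+ replicate 1 (22.6 and 18.7), a library that stood apart. This pair was not examined without that library. Mki67 had the highest median correlation with the other mitotic genes (0.38), whereas Kif20b had 0.12 and Stmn1 -0.09. Mcm7 ran against them, with a median of -0.37 and a lowest value of -0.80 (with Plk1), and -0.23 without old G3 Tert-/- replicate 1. Young G3 Tert-/- replicate 3 held the highest value of its group for 14 of the 25 mitotic genes and old G3 Tert-/- replicate 1 for 11, while young G3 Tert-/- replicate 4 held the lowest for 13.

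**Figure D4:**
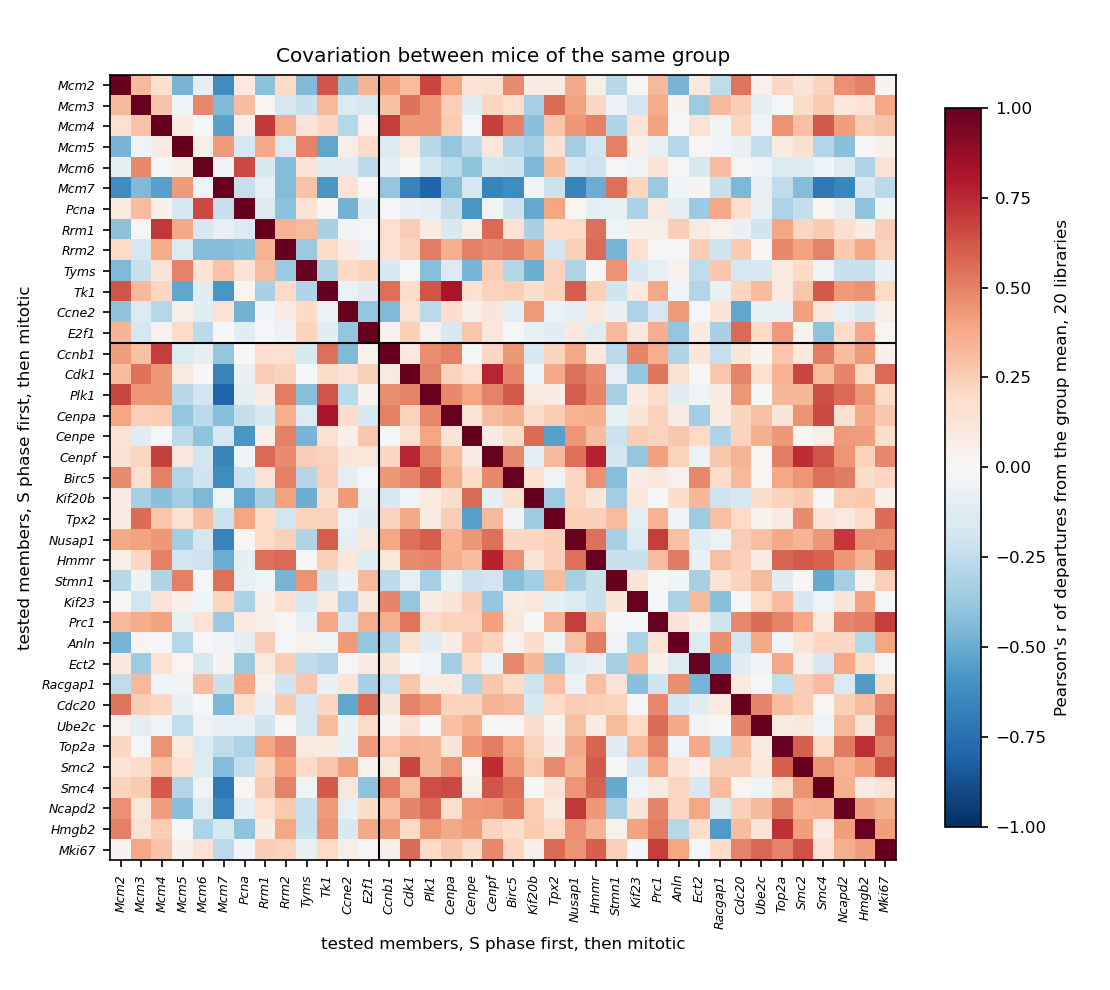
Pearson's r between the departures of each pair of tested genes from their group means over 20 libraries (colour, from -1 in blue to 1 in red), with the 13 S phase genes first and the 25 mitotic genes after the black line. The mitotic block is mostly red (median 0.23), the S phase block mixed (-0.02), and the Mcm7 row mostly blue against mitotic genes (-0.37).

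Of the tested genes of the same pathway outside the list, 1 passed. With age, 0.649% of all genes passed in Tert+/+ and 2.24% in G3 Tert-/- kidneys. Of 36 other mitotic genes 24 were tested, and Spc25, a kinetochore subunit of the Ndc80 complex, was the 1 that passed. It was at 352, 303, 209, 332 and 369 in young Tert+/+ and 266, 434, 294, 283 and 258 in young G3 Tert-/- kidneys. In old mice, it was at 155, 198, 236, 195 and 162 in Tert+/+ and 191, 192, 217, 226 and 159 in G3 Tert-/- kidneys. Old and young G3 Tert-/- mice did not overlap, and in Tert+/+ mice 1 young mouse (replicate 3) lay within the old range. Spc25 fell in Tert+/+ (-0.71 on the log2 scale, SE 0.16, adjusted p = 0.0427) and in G3 Tert-/- kidneys (-0.62 on the log2 scale, SE 0.16, adjusted p = 0.0435). Over those 24 genes the median with age was -0.02 (Tert+/+) and -0.10 (G3 Tert-/-).

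None of the 32 tested replication genes outside the list passed in any comparison, nor any of 9 G1 cyclins and kinases, 9 transcription factors of proliferation and 20 brakes and quiescence genes. In lists of this size a count of 0 is near the share of all genes that passed, at most 2.24% in any comparison. With age their medians were -0.01, -0.11, 0.02 and 0.00 in Tert+/+ and -0.16, 0.02, -0.10 and -0.05 in G3 Tert-/- kidneys. Among the brakes, Cdkn1a, which encodes the inhibitor p21, was at 59, 97.4, 106, 190.4 and 159.9 in young Tert+/+ and 104, 178, 194, 167 and 139 in young G3 Tert-/- kidneys. It was at 83.9, 81.8, 166, 170.0 and 120.2 in old Tert+/+ and 225, 229, 239, 296 and 255 in old G3 Tert-/- kidneys. Old G3 Tert-/- kidneys lay above all 15 others, and the genotype difference at 47 weeks did not pass (1.06 on the log2 scale, SE 0.26, adjusted p = 0.167). It passed with DESeq2 (adjusted p = 0.0321), with quality weights (0.00758) and without the 2 libraries that stood apart (0.0209), over a range of 0.00758 to 0.502 in all alternatives.

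Some markers of fibroblasts, plasma cells, neutrophils and distal tubule also passed with age. The summed count of 8 fibroblast and pericyte genes was 2088 to 4624 in young and 1146 to 1927 in old kidneys of both genotypes, and 2 of the 8, the collagens Col1a1 and Col3a1, fell in each genotype. The pericyte and fibroblast receptors Pdgfrb and Pdgfra had log2 fold changes with age of -0.08 and 0.29 in Tert+/+ and -0.26 and 0.03 in G3 Tert-/- kidneys. Of 5 tested B cell and plasma cell genes, Igkc and Jchain rose in Tert+/+ mice and none passed in G3 Tert-/- mice. The summed count of 8 such genes was 73.0 to 309 in young and 1848 to 7453 in old Tert+/+ kidneys, and 166 to 483 and 244 to 8406 in G3 Tert-/- kidneys, highest in old G3 Tert-/- replicate 1, the mouse with the most Cenpf and Cdk1 of its group. The summed count of 3 neutrophil and myeloid precursor genes was 13.7 to 39.1 in young and 44.7 to 211 in old G3 Tert-/- kidneys, without overlap, and 8.80 to 142 and 27.6 to 53.6 in Tert+/+ kidneys. Of the 2 that were tested, S100a9 rose in G3 Tert-/- mice (2.22 on the log2 scale, SE 0.49, adjusted p = 0.0153) and S100a8 did not pass. Of 6 thick ascending limb and distal tubule genes, Slc12a3 rose in each genotype and Calb1 fell in G3 Tert-/- mice. None of 4 tested T cell genes or 6 urothelial genes passed, and the urothelial sum was 13.5 to 223 in young and 38.3 to 332 in old kidneys. Proximal tubule markers summed to 199393 to 443322 in young and 157248 to 277920 in old kidneys, and 2 of the 8 fell in G3 Tert-/- mice. Endothelial (1933 to 2553 in young, 1912 to 2426 in old), podocyte and macrophage sums overlapped between ages, and the adrenal gene Star was at 460.2 in young Tert+/+ replicate 5 against at most 20.8 elsewhere. The part of these cells in the mitotic and replication results was not tested.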

How the data were processed

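Kidney RNA of 20 mice was read from the 3′ end, 1 library per mouse (300 ng of RNA, mean quality score 6.6, range 5.0 to 7.5, sense strand, per the labels' protocols). The deposited signal is a normalized read count that the authors made per gene and library, and in 20 of 20 libraries 100% of values divided evenly by the step of that library (relative tolerance 1e-06), so reads were recovered by division. The submitters' processing notes name the build GRCm38 and the tools HTSeq 0.6.1, SAMtools 0.1.19, Bowtie 1.0.0, TopHat2 2.0.10, FastQC 0.11.7 and DESeq2, with no role for any.

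Groups follow the labelled genotype and age. The 14630 genes at 10 or more in at least 5 libraries were fitted with limma 3.58.1 in R 4.3.3 as log2(normalized count + 1), with a trend and 1 model of 4 group means. Contrasts were 2 of genotype, 2 of age and the interaction, two-sided, adjusted by Benjamini-Hochberg over every tested gene, with a threshold of 0.05. Fold changes on this scale understate those of low genes. Alternatives were edgeR 4.0.16 and DESeq2 1.42.0 on recovered reads, other scaling, pseudocounts, filters, samples and weights, and each library left out. The labels do not say whether libraries of a group came from separate litters.

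The members and lists were chosen with earlier results of these data known. Named in full are the members that passed, the 5 of smallest p in each comparison, Mki67, Top2a, Cdk1, Pcna, Mcm2 and Cdkn1a, other list genes that passed, and the extremes of mean count. Coordinates are from GENCODE M21 (GRCm38), in which 19798 genes of the table matched 1 annotated gene, and promoters from RefSeq (GRCm38.p6). Cdkn2a was not analysed here.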

Additional observations from a re-analysis of the deposited data

Results flagged for a closer look

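Of 116 groups of 5 values examined (19 genes and 10 role sums in 4 groups), 8 held a library far from its group, by a gap over 0.71 of the group's range. For independent normal values chance gives about 1 in 20, and 8 of 116 is near that rate. The flags are also not independent: several fall in 1 library, and the role sums include some of the 19 genes, such as Cdk1. In old G3 Tert-/- replicate 1, Cenpf was 38.0 against 17.4 to 22.9 in the other 4, Cdk1 11.6 against 2.04 to 4.09, the summed S to M cyclins and their kinase 26.4 against 7.07 to 11.2, and the summed ubiquitin ligase machinery 32.7 against 14.3 to 18.7. In young Tert+/+ replicate 1, Mcm2 was 8.86 against 28.4 to 36.2, and in old Tert+/+ replicate 4, Mcm7 was 386 against 232 to 258. These 2 libraries also stood apart over all genes. In young G3 Tert-/- mice, Ncapd2 was 87.6 in replicate 3 against 49.8 to 60.7, and the summed G1/S cyclins and E2F 77.3 in replicate 2 against 42.4 to 51.8.

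Tk1 lay on opposite sides of the Tert+/+ mean at the 2 ages. All 5 G3 Tert-/- mice lay above the Tert+/+ mean at 7 weeks and below it at 47 weeks, and this sorting was not tested. It leans on young Tert+/+ replicate 1, a library that stood apart, which at 22.6 lowered the young Tert+/+ mean to 49.9. The lowest young G3 Tert-/- mouse, replicate 5, was at 50.4, just above that mean. The limma interaction was -0.76 (SE 0.34, adjusted p = 0.791) and did not pass.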

How the results depend on the processing

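Over 30 alternatives (10 other settings and 20 fits without 1 library each), no member that passed changed direction in the comparison in which it passed. Over the 38 tested members and Cdkn1a, the direction held in all alternatives that tested the gene for 36 of 39 with age in G3 Tert-/- mice (not Mcm7, Rrm1 and Hmgb2), 32 with age in Tert+/+ mice, 28 for genotype at 7 weeks, 25 at 47 weeks and 29 in the interaction. The counts of members at 7 weeks and in the interaction were 0 throughout. At 47 weeks the genotype count was 1, Kif20b, with DESeq2 and with quality weights, and 0 to 1 when libraries were left out (1 without young Tert+/+ replicate 1 or old G3 Tert-/- replicate 5). With age in Tert+/+ mice it was 2 with edgeR, 3 with DESeq2 and 4 with quality weights, and 0 to 2 when libraries were left out: 0 without Tert+/+ young replicates 3, 4 or 5 or old replicates 1, 4 or 5, and 2 without Tert+/+ young replicate 2 or old G3 Tert-/- replicate 1. Without the 2 libraries that stood apart it was 1, with Kif20b in place of Top2a (adjusted p = 0.0737 for Top2a). With age in G3 Tert-/- mice it was 10 with DESeq2, 14 with quality weights and 11 without the 2 libraries that stood apart, and 2 to 9 when single libraries were left out. The median of tested members was -0.081 in Tert+/+ mice among genes with a mean of at least 20, and in G3 Tert-/- mice -0.36 with that filter and -0.80 with no filter. These filters change which members are tested, and Tpx2 and Rrm2 are not tested under the first. The cause of the other shifts was not tested. Fits restricted to the groups compared gave no interaction. Normalized counts under about 10 rest on few reads, which limits the cyclins and kinases of mitotic entry. No paired analysis was possible because the labels give no replicate numbers, and the numbers used here only name mice.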

Other observations

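The genes nearest in pattern to Kif20b were looked for after its values were seen. Over 20 libraries and among 9578 genes with a mean count of at least 50, the genes nearest to it were Acsm3, a medium-chain acyl-CoA synthetase (r = 0.92), Hsd17b11, a steroid dehydrogenase of lipid droplets (0.92), and Slco1a1, an organic anion transporter of the proximal tubule (0.90). Within groups, over departures from group means, their correlations with Kif20b were 0.59, 0.64 and 0.59, and within single groups the lowest were 0.45, 0.24 and 0.029. Against the other 37 tested members it ran from -0.43 (Tyms) to 0.74 (Top2a), with a median of 0.41. Acsm3 was at 294 to 692 in the 5 old G3 Tert-/- kidneys and at 686 to 964 in the 5 old Tert+/+ kidneys. These 20 libraries fall into 4 groups, so the values are descriptions and carry no test.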
